A study of Saccharomyces cerevisiae with 8 samples.

Results

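Ergosterol is the main sterol of yeast membranes, the counterpart of cholesterol in animals. Its precursors are made by the mevalonate pathway, which ends in farnesyl diphosphate, and squalene synthase commits this intermediate to sterols. Squalene is then oxidised, closed into the ring system of lanosterol and trimmed through a series of demethylations, desaturations and a methylation on membranes of the endoplasmic reticulum. Several of these steps use heme, iron and molecular oxygen, and transcription of the genes is known to respond to sterol, heme and oxygen levels.

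The mRNA levels of 10 ergosterol synthesis genes were examined, namely HMG1, HMG2, ERG9, ERG1, ERG11, ERG25, ERG6, ERG2, ERG3 and ERG5. They were taken by name from a table of 6337 genes. All 10 were found, and 10 of 10 passed the filter on low counts that left 6087 genes for testing. The data were counts of poly(A) RNA reads in 8 libraries of Saccharomyces cerevisiae, 2 from each of 4 strains grown in YPD, a rich medium. The strains were wild type, hel2∆, the double mutant ncs2∆elp6∆ and the triple mutant ncs2∆elp6∆hel2∆. Every strain was labelled as MATa in the BY4741 background with deletions of HIS3 (his3Δ1), LEU2 (leu2Δ0) and URA3 (ura3Δ0), and the label of wild type added met15Δ0. HEL2 was replaced by LEU2, NCS2 by a HIS3MX cassette and ELP6 by URA3, so that growth markers were restored along with the deletions. Ncs2 and Elp6 belong to the Urm1 and Elongator pathways, which decorate uridine at the wobble position (U34) in a subset of tRNAs, and the pair of deletions removes this decoration. Hel2, a ubiquitin ligase, senses collided ribosomes and starts their quality control. The comparisons ask how transcripts respond to loss of U34 modification, to loss of Hel2, and to loss of Hel2 in cells without U34 modification.

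Library totals ran from 13252947 to 23941037 counts, and the 10 transcripts took 0.328% to 0.374% of each. The deleted genes matched the labels, with at most 1 count of HEL2 and at most 11 counts of NCS2 or ELP6 in the strains that lacked them and at least 582 of each in the others. MET17, the gene deleted in met15Δ0, had at most 6 counts in wild-type libraries. It had 0 counts in the hel2∆ libraries, whose label does not list that deletion, but 4321 to 6651 counts in the 4 libraries without U34 modification. The state of MET17 thus divided the libraries as U34 modification did, and the contributions of these differences cannot be told apart. Summed CPM (a read count normalised to library totals, which TMM factors corrected) of 5 MATa markers were 939 to 1085 in the strains without U34 modification and 1238 to 1524 in the others, against 8.97 to 15.4 for 3 MATalpha markers, so that every library carried the labelled mating type. What part the lower MATa markers have in the results below was not tested. The study calls its replicates biological, but the labels do not say whether they were separate cultures, and p-values measure the spread between these samples.

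Transcription of sterol genes is known to be activated by Upc2 and Ecm22, which bind a sterol response element with the core TCGTATA. The sites are shown because they divide the 10 genes into those with and those without this core. The 500 bases before each start codon were searched for TCGTATA on both strands (TATACGA on the other) in the R64 assembly, which is the sacCer3 build of the deposited counts. The core was found upstream of 5 of the 10 genes, ERG1, ERG2, ERG3, ERG6 and ERG25, and upstream of 420 of 6000 yeast genes (7.0%). ERG3 and ERG25 each held 2 matches. ERG5, ERG9, ERG11, HMG1 and HMG2 held none, which says only that these letters were not in this window. The matches are given 5′ to 3′ on the strand of the gene, as 30 bases with the core in capitals.
ERG1: gtagcgggcctTCGTATAgctcggccgagc
ERG2: aaccacggcccTCGTATAagccgcaaggaa
ERG3 proximal: aaaattcaggcTCGTATAagtggcacaata
ERG3 distal: caaccggggtgTATACGAggccgatggctg
ERG6: agccccgatctTCGTATAtggtacctcgtt
ERG25 proximal: ggacacagagaTCGTATAcggtaaacgact
ERG25 distal: actgcctccctTCGTATAcgggacacagag

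The core began 382 bases before the start codon of ERG1 (chrVII:848787-848816, minus strand) and 185 bases before that of ERG2 (chrXIII:667341-667370, plus strand). In ERG3 the cores began 286 bases (chrXII:253564-253593, plus strand) and 326 bases (chrXII:253524-253553, plus strand) before the start codon, the distal one in the opposite orientation. ERG6 held its core at 432 bases (chrXIII:253404-253433, minus strand). The ERG25 cores lay at 463 bases (chrVII:610090-610119, plus strand) and 483 bases (chrVII:610070-610099, plus strand). The core of Rox1, a repressor of genes used at low oxygen, was searched likewise as ATTGTTC, or on the other strand as GAACAAT. It was found upstream of 3 of the 10 genes and of 11.8% of 6000 genes. ERG1 held 3 such matches within 86 bases of its start codon, and ERG5 and HMG2 held 1 each. A match is a description of the sequence and not evidence of binding.

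**Figure D1:**
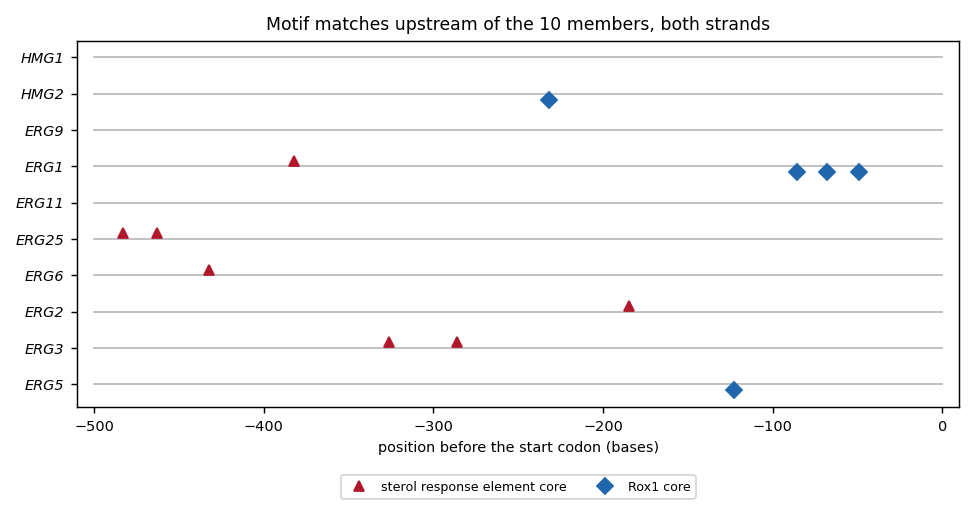
Matches to the sterol response element core (red triangles) and the Rox1 core (blue diamonds) in the 500 bases before the start codon of each gene. The x axis gives the position of the first base of the match in bases before the start codon, and each grey line is the window searched. Sterol response element cores lie upstream of 5 of the 10 genes, and ERG1 alone of the 10 has both kinds of match.

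The tRNAs for AAA, CAA and GAA codons carry the thiolated form of U34 modification. These codons made up a median of 9.66% of the codons of the 10 genes, from 5.48% in ERG3 to 13.32% in ERG6, against a median of 11.33% over 5932 coding sequences. ERG9 had 11.94%, ERG11 9.62%, HMG1 9.96% and HMG2 9.00%. The stretch of 20 codons with the most AAA, CAA and GAA codons is shown for the 4 genes whose mRNA passed the test in some comparison, with these codons in capitals.
ERG9: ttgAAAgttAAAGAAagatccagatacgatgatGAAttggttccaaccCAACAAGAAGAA
ERG11: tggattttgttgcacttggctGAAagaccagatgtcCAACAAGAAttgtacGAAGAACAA
HMG2: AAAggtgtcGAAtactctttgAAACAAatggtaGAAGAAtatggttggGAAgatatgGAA
ERG3: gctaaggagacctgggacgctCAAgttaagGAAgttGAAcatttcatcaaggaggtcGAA

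These stretches were codons 398 to 417 of ERG9 (chrVIII:486036-486095, plus strand, 8 such codons), 325 to 344 of ERG11 (chrVIII:120652-120711, minus strand, 7), 813 to 832 of HMG2 (chrXII:1035063-1035122, plus strand, 8) and 328 to 347 of ERG3 (chrXII:254842-254901, plus strand, 4). ERG3, whose densest stretch held the fewest, stood at percentile 3.6 of coding sequences in its share of these codons. The densest stretch was not sought in other genes, so whether such stretches go with passing the test was not tested. Each of the 10 genes is a single uninterrupted coding sequence with no overlapping gene in the RefSeq annotation. ERG9 (YHR190W) lies at chrVIII:484845-486179 on the plus strand and ERG11 (YHR007C) at chrVIII:120091-121683 on the minus strand of the same chromosome. HMG1 and HMG2 were the most alike, with 81.1% identity over 1201 nt, under the 95% taken here as near-identical.

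Divided by the length of the coding sequence, levels in wild type differed widely among the 10 transcripts. ERG2, the sterol isomerase, was the most abundant at 637 CPM per kb, followed by ERG6 at 469.8 and ERG25 at 467, which differed by less than their spread. HMG1 and HMG2, the HMG-CoA reductases at the entry of the mevalonate pathway, were the lowest at 39.2 and 25.8 CPM per kb. Between strains the levels moved far less. The ratio of the highest to the lowest strain mean was 1.05 for ERG2, whose 4 strain means were not separated beyond their spread, and 1.41 for HMG2.

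**Figure D2:**
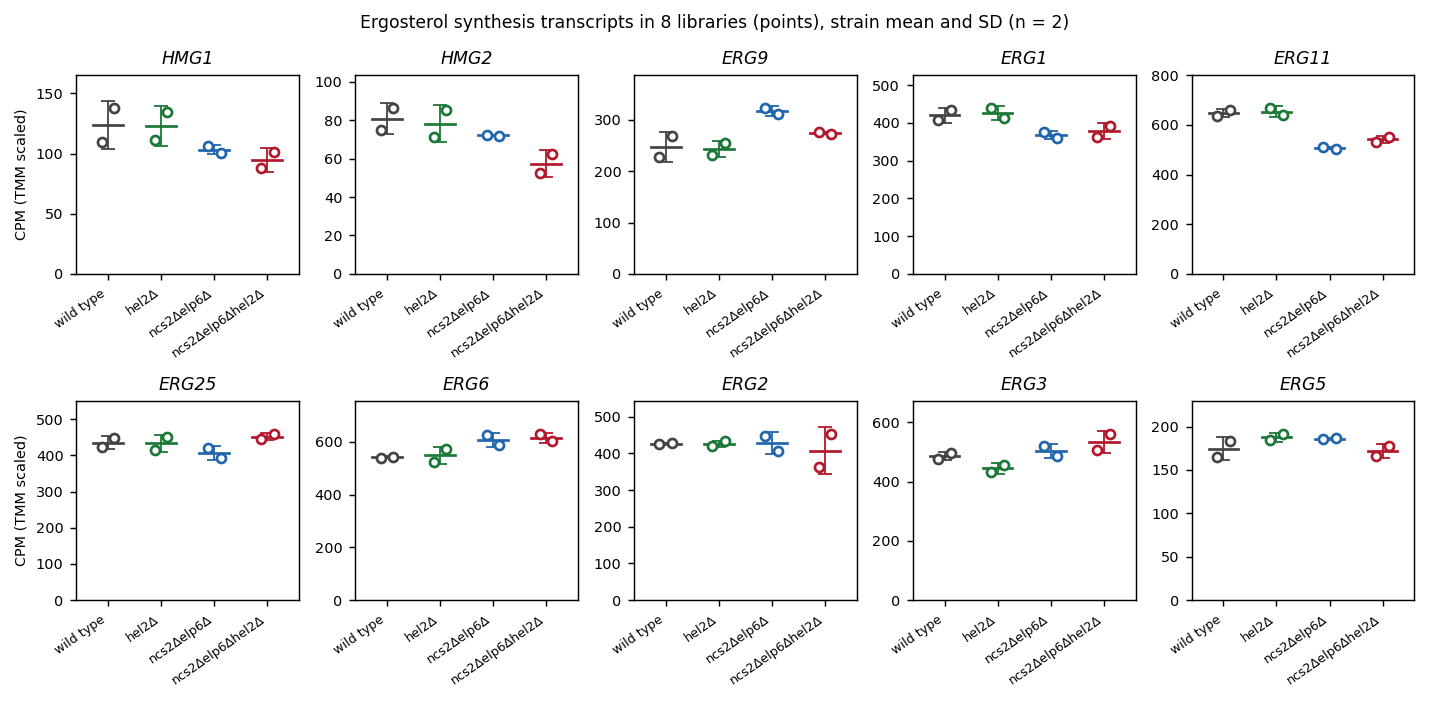
CPM (y axis, from 0) of each of the 10 transcripts in the 8 libraries, with strains on the x axis. Open points are libraries, and lines with bars are the strain mean and SD (n = 2). ERG11 lies between 504 and 551 CPM in the 4 libraries without U34 modification and between 635 and 669 in the others, while ERG9 lies higher in the former (273 to 323 against 227 to 268).

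Loss of U34 modification came with a fall of ERG11 and a rise of ERG9 in cells that have Hel2. ERG11 encodes lanosterol demethylase, a cytochrome P450 and the target of azole antifungals. It measured 635 and 659 CPM in wild type and 510.4 and 504 CPM in the double mutant. The libraries did not overlap, and the difference was larger than the spread between replicates. ERG11 fell by 21.6% (log2 fold change -0.35 ± 0.07 SE, edgeR quasi-likelihood F test, adjusted p = 0.00597). In RNA of whole cultures, less transcript in every cell cannot be told apart from fewer cells that make it.

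ERG9 encodes squalene synthase, which joins farnesyl diphosphate units to make the first compound that leads only to sterols. It measured 227 and 268 CPM in wild type and 323 and 310.5 CPM in the double mutant. Every library of the mutant lay above every library of wild type. The log2 fold change of 0.36 ± 0.09 passed the test (adjusted p = 0.0178). This call was lost without wild type replicate 1 (log2 0.24, adjusted p = 0.119) and without either replicate of the double mutant (0.29 and 0.37, adjusted p = 0.132 and 0.0752), so that ERG11 alone was then called.

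Of the 10 transcripts, 2 were thus called in the double mutant against wild type, 1 higher and 1 lower. Over all 6087 genes tested 27.9% were called, 14.9% higher and 13.0% lower, so that the share of the sterol genes was near the background. Without a wild-type library the share of all genes called was 17.1% or 20.2%, and without a library of the double mutant it was 14.9% or 12.9%. Libraries of the compared strains did not overlap for 8 of the 10, against 65.5% of all genes. The median log2 fold change of the 10 was -0.05 and that of all genes was 0.03, and the median absolute log2 fold change was 0.16 against 0.23.

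The other 8 transcripts did not pass the test. HMG1 had a log2 fold change of -0.26 (adjusted p = 0.167) and HMG2 of -0.16 (adjusted p = 0.337). ERG1, the squalene epoxidase and target of allylamine antifungals, had -0.19 (adjusted p = 0.0883). ERG6, the methyltransferase that adds the side-chain methyl group absent from cholesterol, had 0.16 (adjusted p = 0.139). All libraries of these 4 genes were separated by strain, in the direction of the value given. ERG25, the oxidase that starts removal of the methyl groups at carbon C-4 of the sterol ring, had -0.10, which became 0.01 when plain library totals replaced TMM scaling. ERG5, the desaturase of the side chain and also a P450, had 0.09 and ERG3, a ring desaturase, 0.05. ERG2 had 0.00 with a 95% interval from -0.23 to 0.24.

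In cells without Hel2, loss of U34 modification came with lower ERG11 and HMG2 and higher ERG3. ERG11 measured 669 and 639 CPM in hel2∆ and 532 and 551 CPM in the triple mutant. The groups were again well separated. ERG11 fell by 17.2% (log2 fold change -0.27 ± 0.07, adjusted p = 0.0178). The call was lost with plain library totals (-0.17, adjusted p = 0.0845), without hel2∆ replicate 1 (-0.24, adjusted p = 0.0829) and without replicate 1 of the triple mutant (-0.25, adjusted p = 0.113).

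HMG2 encodes the HMG-CoA reductase isoenzyme whose protein is degraded in response to sterol intermediates. It measured 71.4 and 85.1 CPM in hel2∆ and 52.6 and 62.3 CPM in the triple mutant. The triple mutant was lower in each of its libraries, although both strains had a wide spread. HMG2 fell by 26.6% (log2 fold change -0.45 ± 0.12, adjusted p = 0.0194). Without hel2∆ replicate 2 (-0.31, adjusted p = 0.127) or replicate 1 of the triple mutant (-0.33, adjusted p = 0.136) it was not called.

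ERG3 desaturates the sterol ring late in the pathway. It measured 432 and 457 CPM in hel2∆ and 508 and 561 CPM in the triple mutant. The libraries of the triple mutant were the higher ones, and those of the double mutant (521 and 488 CPM) and wild type (477 and 497 CPM) overlapped each other. ERG3 had a called log2 fold change of 0.26 ± 0.08 (adjusted p = 0.034). The call was lost when only the compared strains were fitted (adjusted p = 0.0623) and in 6 of 8 fits that left out a library, all but those without a wild-type library, with log2 values from 0.18 to 0.33. Of the 4 transcripts called in some comparison, ERG3 was the only one with a sterol response element core in the window searched, against 4 of the 6 that were called in none. The share called among all genes with the core was not counted, and a link between core and call was not tested.

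In this comparison 3 of the 10 transcripts were called, 1 higher and 2 lower. Of all genes 28.8% were called, 15.1% higher and 13.8% lower, again near the share of the sterol genes. Libraries did not overlap for 8 of the 10 and for 66.2% of all genes. The median log2 fold change was -0.10 for the 10 and 0.00 for all genes. Without replicate 1 of the triple mutant none of the 10 and 14.8% of all genes were called, and without hel2∆ replicate 2 only ERG11 and 17.3% of all genes were.

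HMG1, the isoenzyme that supplies most HMG-CoA reductase activity in aerobic cells, came close to the threshold. It measured 111 and 135 CPM in hel2∆ and 87.7 and 101.5 CPM in the triple mutant. The libraries did not overlap, but those of hel2∆ were far apart. The log2 fold change was -0.38 ± 0.13 (adjusted p = 0.0545), and 8 of 16 alternative analyses called it. They included a replicate block chosen after seeing the data and the fits without a wild-type library, which is not part of this comparison. ERG1 had -0.18 (adjusted p = 0.11), ERG6 0.17 (adjusted p = 0.125), ERG9 0.17 (adjusted p = 0.177) and ERG5 -0.12 (adjusted p = 0.261). ERG2 and ERG25 had -0.07 and 0.06.

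**Figure D3:**
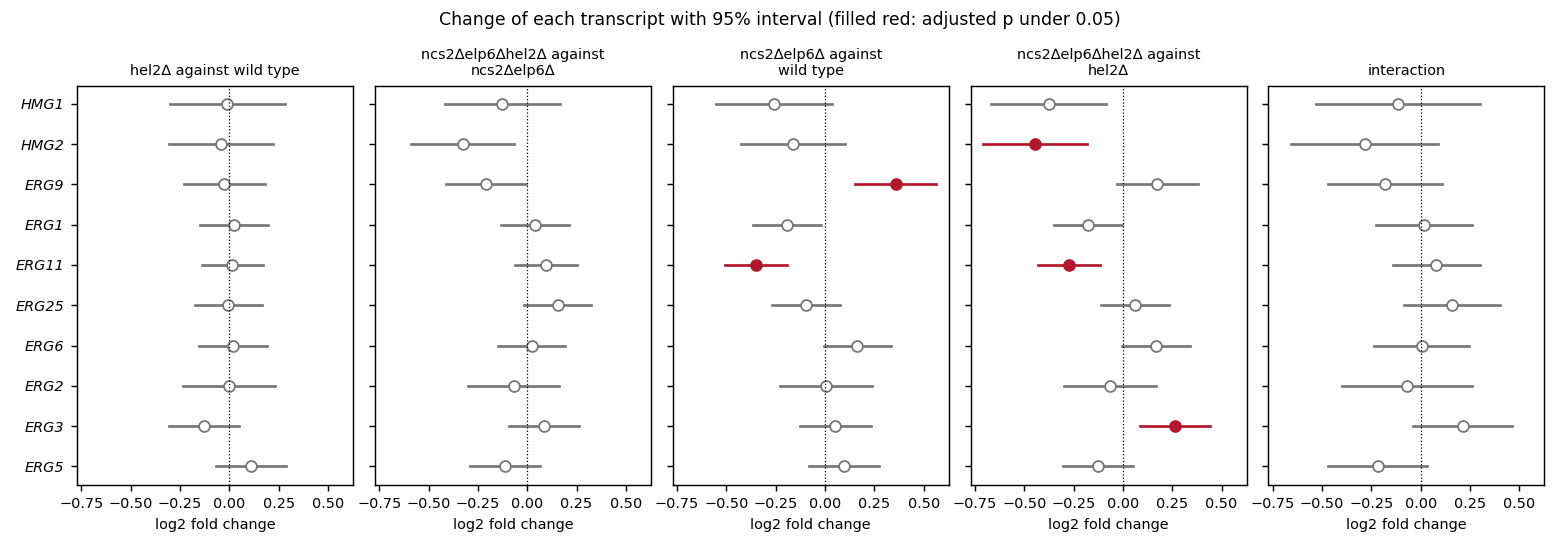
Log2 fold change (x axis) of each transcript (y axis, in pathway order) in the 5 comparisons, 1 per panel, with 95% intervals from the edgeR model. Filled red points passed an adjusted p of 0.05, which were ERG9 and ERG11 in the double mutant against wild type and HMG2, ERG11 and ERG3 in the triple mutant against hel2∆.

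ERG1 and ERG6 were separated in opposite directions by U34 modification, with calls in some alternatives only. ERG1 measured 406 and 435 CPM in wild type and 439.8 and 413 CPM in hel2∆, and without U34 modification it measured 374 and 361 CPM (double mutant) and 362 and 392 CPM (triple mutant). ERG6 measured 539 and 543 CPM in wild type and 524 and 572 CPM in hel2∆, and without the modification 626 and 587 CPM (double mutant) and 629 and 602 CPM (triple mutant). The 4 libraries without the modification were the lowest of the 8 for ERG1 and the highest for ERG6, although neither difference passed the adjusted threshold. HMG1 was separated as ERG1 was, at 87.7 to 105.9 CPM without the modification and 109.9 to 138 CPM with it, and was not called either. How many of all genes separate in this way was not counted. In the single comparisons, libraries did not overlap for 65.5% of all genes against wild type and 66.2% against hel2∆. ERG1 was called in 1 of 16 alternatives per comparison, a replicate block that was chosen after seeing the data. With plain library totals ERG6 was called against both wild type and hel2∆ (adjusted p = 0.0242 and 0.0245). That setting also moved the median of all genes to 0.141 and 0.105. ERG2, ERG5 and ERG25 ran from 362 to 452, from 165 to 191 and from 393 to 459 CPM over the 8 libraries, with no such separation.

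ERG11 was the only transcript of the 10 called in both comparisons of U34 modification, which use different libraries in a shared fit. The call against wild type held in 16 of 16 alternative analyses, with adjusted p from 0.000139 to 0.0412, and that against hel2∆ in 13 of 16. The count ratio of ERG9 to ERG11 within a library, which does not depend on scaling between libraries, was 0.357 and 0.407 in wild type and 0.346 and 0.399 in hel2∆. It was 0.634 and 0.616 in the double mutant and 0.518 and 0.495 in the triple mutant. The ratio was higher in each of the 4 libraries without U34 modification, and lower in the triple mutant than in the double mutant. The count ratio of ERG3 to ERG11 was also separated, at 0.646 to 0.753 in the 4 libraries with the modification and 0.955 to 1.02 in those without it. These ratios were chosen after the values had been seen and were not tested. HMG1 to HMG2 gave 1.40 to 1.67 in all 8 libraries.

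Loss of Hel2 alone came with small measured changes of the 10 transcripts. None of the 10 was called in hel2∆ against wild type by edgeR, none had an unadjusted p under 0.05 and DESeq2 called 0. Of all genes 0.657% were called. Log2 fold changes ran from -0.13 for ERG3 to 0.11 for ERG5, and their 95% intervals lay between -0.31 and 0.29. The widest of these intervals include changes as large as the 0.26 called for ERG3 in the triple mutant against hel2∆. ERG3 and ERG5 were the 2 of 10 whose libraries did not overlap, against 28.9% of all genes. The absolute log2 fold change had a median of 0.02 over the 10 and 0.08 over all genes.

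In cells that lack U34 modification, loss of Hel2 also gave 0 called transcripts of 10 in edgeR and in DESeq2, against 6.93% of all genes in edgeR. Leaving out a library of the compared strains lowered the number of all genes called from 422 to between 69 and 179. HMG2 and ERG9 had unadjusted p under 0.05, and HMG2 was called when replicate number was a block (adjusted p = 0.0467). HMG2 measured 72.4 and 71.8 CPM in the double mutant and 52.6 and 62.3 CPM in the triple mutant, a log2 fold change of -0.33 ± 0.12 (adjusted p = 0.118). ERG9 measured 323 and 310.5 CPM in the double mutant and 276 and 273 CPM in the triple mutant. Its log2 fold change was -0.21 ± 0.09 (adjusted p = 0.194), so the level in the triple mutant lay between those of the double mutant and wild type, and it was called neither against the double mutant nor against hel2∆. ERG25 had 0.15, ERG5 -0.11 and ERG11 0.09. Libraries did not overlap for 5 of the 10 and for 56.9% of all genes.

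Whether the response to loss of Hel2 differed between cells with and without U34 modification was tested by the interaction. None of the 10 was called by edgeR, none had an unadjusted p under 0.05, and DESeq2 called 0, against 1.13% of all genes called by edgeR. The values ran from -0.28 for HMG2 (95% interval -0.66 to 0.09) to 0.21 for ERG3 (-0.04 to 0.46), with -0.22 for ERG5 and -0.18 for ERG9. ERG11 had 0.08 (-0.14 to 0.30). Differences between single libraries did not overlap for 2 of 10 genes, ERG3 and ERG5, and for 27.8% of all genes. The calls of ERG9 in one background and of HMG2 and ERG3 in the other are therefore not shown to differ between backgrounds.

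The 10 transcripts did not all vary together. Over the 8 libraries, which share 4 strain means, 27 of 45 pairs had a positive Pearson correlation of log2 CPM and the median was 0.169. ERG1 and ERG11 gave the highest value at 0.952, and HMG1 and HMG2 followed at 0.927. ERG6 and ERG9 also varied together (0.770). ERG11 ran opposite to ERG6 (-0.877) and to ERG9 (-0.849). The genes most like the mean of the 10 were COS7, RPE1, LCB3, PET122 and YPL039W, with correlations from 0.954 to 0.976 over the 8 libraries. They were picked as the highest of all genes tested, which by itself favours high values. That mean ran only from -0.11 to 0.09 in log2 CPM. ERG6, ERG9 and ERG3 correlated negatively with the mean of the other members (-0.45, -0.26 and -0.23), and the rest positively (0.21 to 0.82). COS7 belongs to a family of similar genes, and its counts are uncertain for that reason.

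In the rest of the pathway the largest change was that of ERG28, the scaffold that holds together the enzymes that remove the C-4 methyl groups, ERG25 among them. ERG28 measured 59.4 and 68.9 CPM in wild type and 64.5 and 64.4 CPM in the strain without HEL2 only. The double mutant had 26.9 and 25.8 CPM and the triple mutant 23.9 and 27.5 CPM. Levels thus fell in every library without U34 modification, with log2 fold changes of -1.28 ± 0.11 against wild type (adjusted p = 4.86e-05) and -1.33 ± 0.11 against hel2∆ (adjusted p = 2.68e-05). ERG27, the reductase of the same complex, fell less (-0.24 and -0.29, adjusted p = 0.0296 and 0.0128), calls that held in 11 and 13 of 16 alternatives and not with plain library totals (-0.13 and -0.19, adjusted p = 0.213 and 0.0918). These were the 2 of 7 called among the genes from squalene to ergosterol outside the 10, in each comparison of U34 modification, and none rose. The median log2 fold change of the 7 was -0.03 and -0.18, against 0.03 and 0.00 over all genes, of which 27.9% and 28.8% were called.

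Among 7 genes of the mevalonate and farnesyl diphosphate steps, 2 rose and 1 fell in the double mutant against wild type, and 1 rose and 1 fell in the triple mutant against hel2∆, with median log2 fold changes of 0.20 and -0.03. Over all genes the medians were 0.03 and 0.00, and 27.9% and 28.8% were called. ERG20, the farnesyl diphosphate synthase that acts just before ERG9, fell in both, with log2 fold changes of -0.54 ± 0.09 and -0.40 ± 0.09 (adjusted p = 0.00192 and 0.00866). It measured 413 and 361 CPM in wild type and 265 and 267 CPM in the double mutant. IDI1, the isopentenyl diphosphate isomerase one step earlier, rose by 0.32 and 0.21 (adjusted p = 0.007 and 0.0427), the second a call that held in 5 of 16 alternative analyses. MVD1, the decarboxylase before it, rose by 0.30 against wild type (adjusted p = 0.00981). No gene of these 2 lists was called when HEL2 was lost from either background. Of all genes 0.657% were called in hel2∆ against wild type and 6.93% in the triple mutant against the double mutant.

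**Figure D4:**
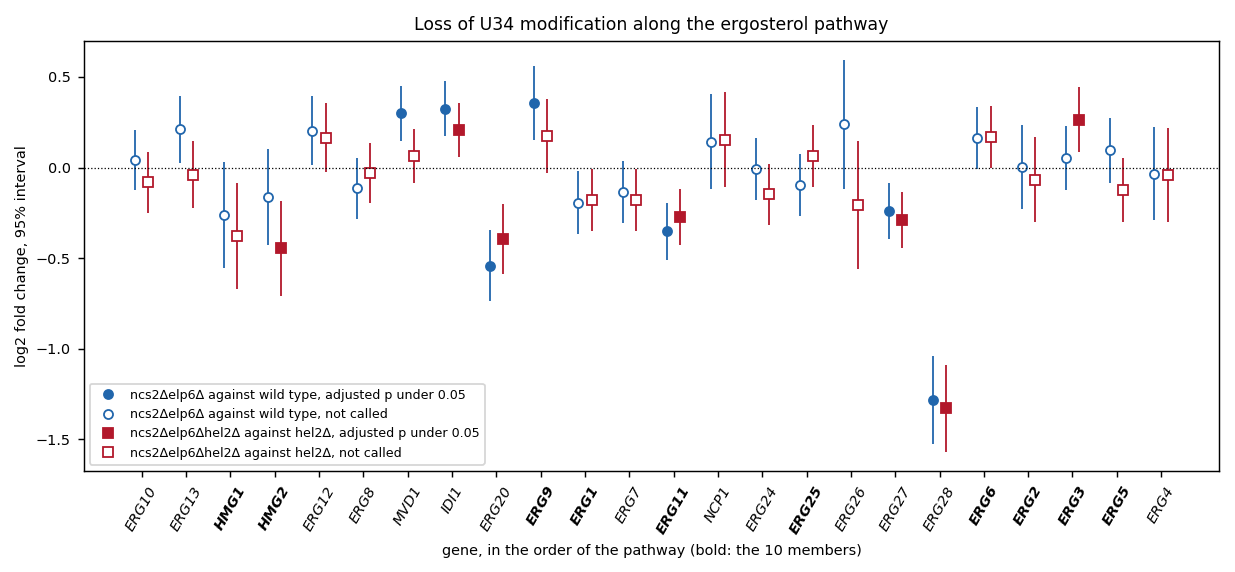
Log2 fold change with 95% interval (y axis) of 24 pathway genes in the order of their steps (x axis, the 10 genes of the report in bold) for the double mutant against wild type (blue circles) and the triple mutant against hel2∆ (red squares). Filled symbols passed an adjusted p of 0.05. ERG28 stands lowest in both comparisons, at -1.28 and -1.33, and neighbours such as ERG20 and ERG9 lie on opposite sides of 0.

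Of 6 regulators of sterol genes, 5 were in the table and HAP1 was not analysed here. UPC2 had log2 fold changes of -0.29 in the double mutant against wild type and -0.23 in the triple mutant against hel2∆, neither called (adjusted p = 0.0918 and 0.166). ECM22 rose by 0.28 in the former (adjusted p = 0.0326, a call that held in 7 of 16 alternatives) and had 0.14 in the latter (adjusted p = 0.211). MOT3, a repressor of ergosterol and low-oxygen genes, rose by 0.55 and 0.49 (adjusted p = 0.0101 and 0.0149). These calls held in 14 and 13 of 16 alternatives. SUT1, an activator of sterol uptake, had 0.10 and -0.28, and neither was called. ROX1 measured 73.3 and 74.7 CPM in wild type, and hel2∆ libraries had 73.9 and 71.2 CPM. Libraries of the double mutant had 81.6 and 76.3 CPM and those of the triple mutant 117 and 100.2 CPM. It was highest in the triple mutant, where it rose against hel2∆ (0.58 ± 0.09, adjusted p = 0.00142) and against the double mutant (0.46 ± 0.09, adjusted p = 0.0216). The second call was lost without either replicate of the double mutant or without replicate 1 of the triple mutant (adjusted p up to 0.172). The interaction of ROX1 was not called (0.49 ± 0.13, edgeR adjusted p = 0.147), so its response to loss of Hel2 is not shown to differ between backgrounds. The median log2 fold change of the 5 regulators was 0.10 and 0.14 in the comparisons of U34 modification.

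Heme is the cofactor of the P450 enzymes ERG11 and ERG5. Of 10 genes of heme synthesis and of P450 partners, 4 fell and none rose in the double mutant against wild type. HEM13 fell by 0.53, HEM3 by 0.51, HEM14 by 0.44 and CYB5, an electron donor of sterol enzymes, by 0.33 in log2 units (adjusted p = 0.00649, 0.00552, 0.0108 and 0.0398). The call of CYB5 held in 11 of 16 alternatives and not with plain library totals (-0.22, adjusted p = 0.125). HEM14 overlaps an antisense gene by 489 bases, and its value is uncertain because the use of strand in counting was not given. In the triple mutant against hel2∆ 3 fell and 1 rose, with CYB5 at -0.49, HEM3 at -0.44, HEM4 at -0.33 and DAP1, a heme-binding partner of Erg11, at 0.74 (adjusted p = 0.00615, 0.0099, 0.0161 and 0.000224). The call of HEM4 held in 11 of 16 alternatives and not with plain library totals (-0.22, adjusted p = 0.0744). The medians of this list were -0.18 and -0.24, against 0.03 and 0.00 over all genes, of which 27.9% and 28.8% were called.

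Genes used at low oxygen, many of which respond to heme and sterols, changed more. In the double mutant against wild type 7 of 10 fell and 1 rose, with a median log2 fold change of -1.27. Of all genes 13.0% were called lower and 14.9% higher, with a median of 0.03. TIR1, a cell wall mannoprotein, measured 63.3 and 99.9 CPM in wild type and 7.27 and 5.80 CPM in the double mutant (log2 fold change -3.65 ± 0.41, adjusted p = 0.000247). ANB1, the low-oxygen form of a translation factor, had -2.22 (adjusted p = 0.00033). Its coding sequence is 91.1% identical to that of HYP2 over 473 nt. Its counts are less certain for that reason, as the treatment of multi-mapping reads was not given. In the triple mutant against hel2∆ 5 fell and 2 rose, with TIR1 at -2.93 and ANB1 at -1.68 (adjusted p = 0.000508 and 0.00108), and with CYC7, the low-oxygen cytochrome c, at 1.46 (adjusted p = 0.00123) and a median of -0.67. Here 13.8% of all genes were called lower and 15.1% higher, with a median of 0.00.

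Genes that store and move sterols changed in both directions. Of 11, 1 rose and 2 fell in the double mutant against wild type and 2 rose and 3 fell in the triple mutant against hel2∆, with median log2 fold changes of -0.21 and -0.28. Over all genes 27.9% and 28.8% were called, with medians of 0.03 and 0.00. ARE2, the main sterol acyltransferase, rose by 0.80 and 0.49 in log2 units (adjusted p = 0.00338 and 0.029). These calls held in 16 and 13 of 16 alternatives. ATF2, which acetylates sterols, fell by 0.84 and 0.86 (adjusted p = 0.00156 and 0.00113). PDR11, a transporter for sterol uptake, fell by 0.42 and 0.39 (adjusted p = 0.0245 and 0.0335), calls that held in 12 and 11 of 16 alternatives.

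Of 6 genes that set the stability of HMG-CoA reductase, only CUE1, which recruits a ubiquitin-conjugating enzyme to the endoplasmic reticulum, was called in the double mutant against wild type (-0.40, adjusted p = 0.0122) and only HRD1, the ubiquitin ligase for Hmg2, in the triple mutant against the double mutant (-0.33, adjusted p = 0.0399). The call of HRD1 held in 10 of 16 alternatives and in none of the 4 fits that left out a library of the compared strains (adjusted p up to 0.226). None of the 6 was called in the triple mutant against hel2∆. Among 8 genes of other branches from isoprenoid precursors, only NUS1, a subunit of the enzyme that makes dolichol, was called, with -0.47 and -0.38 in the comparisons of U34 modification (adjusted p = 0.00861 and 0.0203). The calls of NUS1 held in 15 and 12 of 16 alternatives, the second not with plain library totals (-0.27, adjusted p = 0.0739). The medians of these 2 lists were 0.04 and 0.01 for stability and -0.03 and 0.01 for the other branches. Over all genes they were 0.03 and 0.00, and 27.9% and 28.8% were called. In hel2∆ against wild type 0 genes of these lists and 0.657% of all genes were called. In the triple mutant against the double mutant 6.93% of all genes were called.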

How the data were processed

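The deposited table holds whole-number counts per gene, not normalised. Per the study's methods, reads were left untrimmed by the authors and aligned against annotated coding regions. The submitters' processing notes name Bowtie and sacCer3. The counting program, annotation and treatment of multi-mapping reads are not given in the sources used here. Counts were filtered with filterByExpr, scaled by TMM and tested with two-sided quasi-likelihood F tests (edgeR 4.0.16, R 4.3.3) in a model with a mean per strain over all 8 libraries. Adjustment over the 6087 genes followed Benjamini-Hochberg, and genes were called at an adjusted p under 0.05. CPM are TMM-scaled. DESeq2 1.42.0 was an alternative. Scripts were tested on simulated data. The 4 strain groups came from the labels. Replicates of a strain differed beyond sampling noise (chi-square per degree of freedom 21.8 to 40.4) and were counted separately. Per list and comparison, at most 4 called genes of largest change were named, and sterol regulators always. Members and lists were chosen with earlier results of these data known. Sequences are from the RefSeq R64 assembly. LEU2 and URA3 were not analysed here.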

Additional observations from a re-analysis of the deposited data

Results flagged for a closer look

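The response to loss of HEL2 differed between cells with and without U34 modification for 2 genes of the lists, by the test of the interaction itself (edgeR). They were 1 of 10 genes of heme synthesis and P450 partners and 1 of 10 low-oxygen genes, with none in the other lists. Over all genes 1.13% were called. DAP1, the heme-binding partner of Erg11, measured 51.4 and 56.9 CPM in wild type, and libraries of hel2∆ gave 55.3 and 52.8 CPM. The double mutant ncs2∆elp6∆ had 58.3 and 54.95 CPM and the triple mutant 90.5 and 90.1 CPM. It was high in the triple mutant alone, with an interaction of 0.68 ± 0.12 on the log2 scale (adjusted p = 0.0277), which 9 of 15 alternative analyses called (adjusted p up to 0.14). COX5B, the low-oxygen subunit of cytochrome oxidase, measured 141 and 129 CPM in wild type, and libraries of hel2∆ gave 127 and 106 CPM. The double mutant had 44.9 and 45.5 CPM and the triple mutant 84.6 and 79.4 CPM. Its fall with loss of U34 modification was smaller in the triple mutant, with an interaction of 1.08 ± 0.14 (adjusted p = 0.00405), called in 15 of 15.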

How the results depend on the processing

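Of 94 values recomputed under up to 16 alternatives, 44 kept direction and call in all, and 6 reversed in at least 1. With ERG2 in the double mutant against wild type, the log2 fold change of 0.00 became -0.0226 with DESeq2, -0.0220 with RLE scaling and -0.0230 with the compared strains only, and ran from -0.107 to 0.0516 without single libraries. Plain library totals, which move the median of all genes to 0.14 and 0.11 in the comparisons of U34 modification, gave 0.0103 for ERG25 against wild type and 0.0360 for ERG2 against hel2∆. They called 1420 genes higher and 519 lower in the double mutant against wild type (906 and 793 with TMM), and 1389 and 521 in the triple mutant against hel2∆ (917 and 837 with TMM). Without single libraries, ERG2 against hel2∆ ran from -0.25 to 0.0859, ERG3 against wild type from -0.0347 to 0.0813, and SUT1 from -0.18 to 0.29 against wild type and from -0.57 to 0.11 against hel2∆. Without single libraries the number of the 10 called ran from 1 to 2 in the double mutant against wild type and from 0 to 4 in the triple mutant against hel2∆. Library totals called 3 and 4, ERG6 among them in both. A strain left with 1 library was assumed to vary like the others. The cause of these changes was not tested.

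Replicate numbers were not taken as pairing, since same-number correlations of deviations were over 0.1 in only 2 of 6 pairs of strains, at 0.476 for wild type and hel2∆ and 0.120 for hel2∆ and the triple mutant. The others were 0.0819 for wild type and the triple mutant and -0.209 to -0.117 for the 3 pairs with the double mutant. With the number as a replicate block, HMG2 was the 1 of 10 called in the triple mutant against the double mutant (-0.33, adjusted p = 0.0467). With a crossed replicate block, which swaps the numbers of the double mutant and was chosen after seeing the data, 4, 2 and 6 were called in the double mutant against wild type, the triple mutant against the double mutant and the triple mutant against hel2∆. Added to the calls were ERG1 and HMG1 against wild type (adjusted p = 0.0301 and 0.0182), HMG2 and ERG9 against the double mutant (adjusted p = 0.0128 and 0.0462) and ERG1, HMG1 and ERG6 against hel2∆ (adjusted p up to 0.0478). Over all genes, 422 called in the triple mutant against the double mutant became 647 with DESeq2, 663 with the block, 869 with the compared strains only and 1265 with the crossed block, and ran from 69 to 587 without single libraries. The interaction had 69, and 153, 119 and 322 with DESeq2, the block and the crossed block. In hel2∆ against wild type 40 became 61 with DESeq2, 17 with the compared strains only and 79 with the crossed block. The 10 transcripts had at least 1113 counts in every library and standard errors of 0.07 to 0.13 with 2 libraries per strain.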

Other observations

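Genes of fatty acid and phospholipid synthesis, which share acetyl-CoA and membranes with the sterol pathway, were also counted. Of 10, 3 rose and none fell in the double mutant against wild type, and 2 rose and 3 fell in the triple mutant against hel2∆, with median log2 fold changes of 0.03 and -0.10. Over all genes 27.9% and 28.8% were called, with medians of 0.03 and 0.00. FAS2 was 1 of the 3 that rose against wild type (0.23, edgeR adjusted p = 0.0419), a call that held in 5 of 16 alternatives. INO1, the inositol phosphate synthase, rose by 0.71 and 1.33 in log2 units (adjusted p = 0.00837 and 0.000228), and CHO1, the phosphatidylserine synthase, by 0.41 and 0.45 (adjusted p = 0.00246 and 0.00131). CHO2, a methyltransferase of phosphatidylcholine synthesis, fell by 0.81 (adjusted p = 0.00501) and ELO3, a fatty acid elongase, by 0.71 (adjusted p = 0.0104) in the latter comparison. In the triple mutant against the double mutant, 1 of the 11 genes that store and move sterols rose and 2 fell. Of all genes 6.93% were called in this comparison. AUS1, a transporter for sterol uptake, fell by 0.62 (adjusted p = 0.038) and TGL1, a sterol ester hydrolase, by 0.52 (adjusted p = 0.0483). NPC2, a sterol-binding protein of the vacuole, rose by 0.38 (adjusted p = 0.0207). These calls held in 12, 11 and 12 of 16 alternatives, and in none of the 4 fits that left out a library of the compared strains (adjusted p up to 0.255, 0.33 and 0.171).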
